A study of Homo sapiens with 9 samples.

Results

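The genes described here are 28 genes of cholesterol and fatty acid synthesis, taken as a fixed list of gene names: 7 enzymes of the mevalonate and isoprenoid steps, 3 of the squalene and lanosterol steps, 6 of the steps from lanosterol to cholesterol, 5 genes of sterol sensing and transport, 3 of fatty acid synthesis and 4 of fatty acid elongation and desaturation. They are 28 of the 24672 genes in the deposited tables, and all 28 passed the filter on low counts that left 12806 genes for testing. They were followed in EPC2, an esophageal epithelial line immortalised with human telomerase reverse transcriptase. The ALI control group (3 libraries) carried a non-silencing control and was differentiated at an air-liquid interface (ALI), where the upper surface of a confluent sheet is exposed to air so that the cells stratify. The ALI silenced group (3 libraries) was cultured in the same way with SPINK7, a Kazal-type protease inhibitor, silenced. The monolayer group (3 libraries) carried the non-silencing control and was kept undifferentiated. Every group grew in serum-free keratinocyte medium supplemented with pituitary extract of bovine origin (50 ug/mL) and epidermal growth factor (1 ng/mL). The ALI cultures were seeded at 0.09 mM calcium, moved to 1.8 mM calcium on day 2, lifted to air on day 7 and harvested on day 14, per the labels' protocols. All libraries come from 1 cell line, and the labels do not name the silencing construct. Nor do they state that replicate libraries were grown as separate cultures, so p-values here reflect only library-to-library spread, part of which may be technical.

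Cholesterol is built from acetyl-CoA through mevalonate, isoprenoid units, squalene and lanosterol. The enzymes of this route are known as targets of SREBF2, a membrane-bound transcription factor that the escort protein SCAP carries to the Golgi for cleavage when sterols are scarce, and that INSIG1 holds back when they are plentiful. SREBF1 is the relative best known for fatty acid genes, where ACLY supplies acetyl-CoA, ACACA makes malonyl-CoA, FASN builds palmitate, and elongases and desaturases finish the chains. Stratified squamous epithelium uses these lipids for membranes and, in cornifying layers, for the extracellular lipid of its barrier.

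The libraries held between 7641960 and 14009746 counts, of which the 28 genes took 0.608 to 0.738%. SPINK7 stood at 229, 261 and 225 CPM (read count scaled to library size) in the ALI control libraries, at 20.9, 38.6 and 32.7 in the silenced libraries, and at 0.212, 0.506 and 0.745 in the monolayers. Its log2 fold change under silencing was -2.95 (SE 0.30, edgeR adjusted p = 0.00246), so the labels and the measured level went the same way. The ALI libraries numbered 2 stood apart from the others in both arms on the second principal component, at -78.5 (control) and -25.5 (silenced) against 14.3 to 55 for the other 4 ALI libraries. Where leaving these libraries out changed a call or moved a called value by over 1.5 times, the value without them is given. Monolayer libraries 2 and 3 differed little more than sampling noise, with a chi-square per degree of freedom of 1.91 over 12027 genes, against 16.84 to 159.68 for the other pairs within groups. Differentiation of the ALI control cultures was visible in the 10 squamous markers, all of which rose from monolayer (20.3% of all tested genes rose). They summed to at most 28.6 CPM in the monolayers and to 4880 to 12900 CPM in the ALI control libraries.

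The promoters of 4 genes are shown because these genes carry the changes described next: TM7SF2 and IDI1 rose on differentiation, FADS1 fell, and SREBF2 both fell and was the 1 gene here whose window held the sterol regulatory element pattern. Each is the RefSeq window of 250 bases before to 50 bases after a gene start, on assembly GRCh38.p14, written 5′ to 3′ on the strand of the gene. Capitals mark the letters of any searched motif on either strand: the sterol regulatory element pattern TCACNCCAC, the CCAAT box CCAAT and the GC box GGGCGG. The windows are chr11:65111622-65111921 (plus strand) for TM7SF2, chr10:1049070-1049369 (minus) for IDI1, chr11:61816954-61817253 (minus) for FADS1 and chr22:41832855-41833154 (plus) for SREBF2.
TM7SF2: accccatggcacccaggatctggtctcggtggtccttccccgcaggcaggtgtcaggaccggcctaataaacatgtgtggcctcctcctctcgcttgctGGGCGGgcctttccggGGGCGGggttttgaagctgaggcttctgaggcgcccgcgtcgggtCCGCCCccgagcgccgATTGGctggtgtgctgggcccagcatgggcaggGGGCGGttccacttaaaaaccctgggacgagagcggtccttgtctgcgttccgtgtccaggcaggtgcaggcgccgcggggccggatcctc
IDI1: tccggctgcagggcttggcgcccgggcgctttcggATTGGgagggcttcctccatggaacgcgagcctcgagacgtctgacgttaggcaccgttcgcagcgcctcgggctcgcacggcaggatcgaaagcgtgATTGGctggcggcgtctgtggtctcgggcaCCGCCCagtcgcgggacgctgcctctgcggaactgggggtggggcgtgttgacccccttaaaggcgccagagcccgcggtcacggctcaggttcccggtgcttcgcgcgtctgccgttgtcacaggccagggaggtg
FADS1: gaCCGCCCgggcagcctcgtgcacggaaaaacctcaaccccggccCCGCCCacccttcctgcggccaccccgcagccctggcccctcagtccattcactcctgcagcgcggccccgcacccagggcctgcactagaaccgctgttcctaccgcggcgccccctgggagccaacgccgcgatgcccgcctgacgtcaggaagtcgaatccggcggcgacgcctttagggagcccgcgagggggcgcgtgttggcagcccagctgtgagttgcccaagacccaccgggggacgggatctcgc
SREBF2: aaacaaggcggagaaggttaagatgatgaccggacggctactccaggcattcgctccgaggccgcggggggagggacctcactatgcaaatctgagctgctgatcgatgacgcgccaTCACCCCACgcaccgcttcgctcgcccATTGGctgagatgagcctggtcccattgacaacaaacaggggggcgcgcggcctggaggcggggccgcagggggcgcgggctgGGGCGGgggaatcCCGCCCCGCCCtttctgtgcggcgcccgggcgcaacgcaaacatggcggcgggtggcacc

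RefSeq windows matched 24 of the 28 genes, with 32 windows in all, and FASN, FDFT1, SQLE and ACAT2 had no entry. TCACNCCAC was in the window of 1 of the 24 genes and in 1.13% of all 35116 windows of this length. CCAAT was in at least 1 window of 18 of the 24 genes, against 34.6% of all windows, and GGGCGG in those of 23 of the 24, against 45.0%. FADS2 is among both counts, although its windows lie 11357 and 11558 bases from the start of its deposited transcript. Genes with several windows had more chances to match, so these shares per gene and per window are not on 1 scale. Per window, 21 of the 32 held CCAAT and 28 held GGGCGG. In the sequences above, FADS1 held no CCAAT and IDI1 held 2. A match describes letters in this window and says nothing about binding.

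In differentiation, the comparison of ALI control with monolayer, most of the 28 genes did not pass the test. TM7SF2, IDI1, FDPS and PMVK rose, and FADS1, FADS2, SREBF2, LSS and ACLY fell. The genes that rose all had sterol roles, which most of the 28 genes have, and so did SREBF2 and LSS among the falls. FADS1, FADS2 and TM7SF2 moved by far more than the rest, by over 10-fold, while the other 6 that passed changed by 1.93- to 2.87-fold. The 4 rises are 14.3% of the 28 genes, where 20.3% of all tested genes rose (edgeR adjusted p under 0.05), and the 5 falls are 17.9%, where 20.2% of all tested genes fell. Neither share was above that of all genes. The median log2 fold change was -0.03 over the 28 genes (quartiles -0.61 and 0.40) and 0.03 over all tested genes (quartiles -0.70 and 0.68). CPM did not overlap between the groups for 5 genes that were higher in ALI control (27.3% of all genes) and 7 that were lower (29.9% of all genes). The first 5 are the 4 above and SQLE, and the 7 include FASN and SCAP beside the 5 that fell. In bulk RNA, fewer cells of a type and less RNA per cell cannot be told apart.

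**Figure D1:**
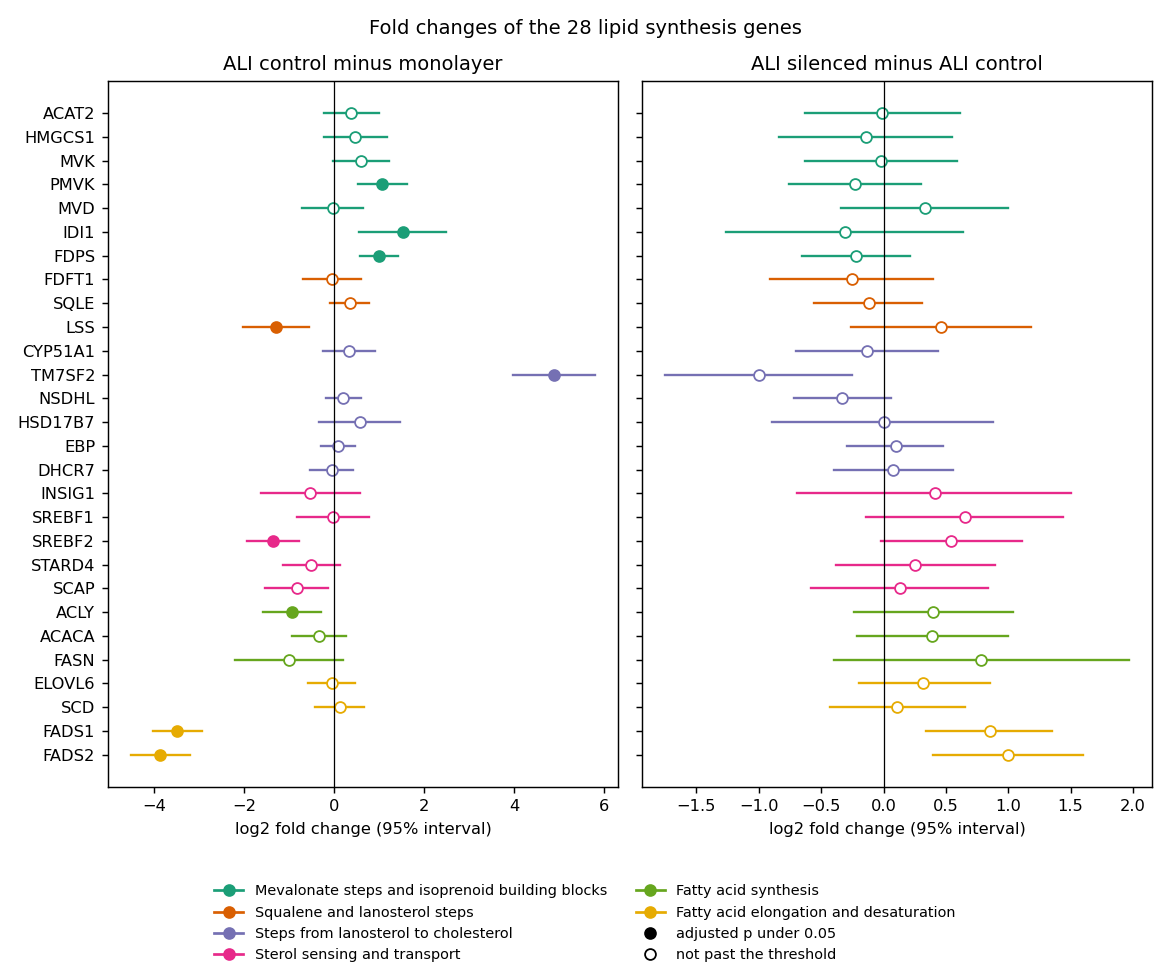
Log2 fold changes (x axis) with 95% intervals of the 28 genes (y axis, grouped by role in colour) for ALI control minus monolayer (left) and ALI silenced minus ALI control (right, on a narrower axis); filled points have an adjusted p under 0.05. On the left 9 points are filled, with TM7SF2 at 4.87 and FADS2 at -3.87 at the extremes, and on the right none is.

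Among the 7 mevalonate and isoprenoid genes, 3 rose and none fell, where 20.3% and 20.2% of all tested genes did. The other 4 did not pass the test, and the median log2 fold change of the 7 was 0.59. IDI1, which isomerises the isoprenoid unit isopentenyl diphosphate (hg19 chromosome 10, 1085964 to 1095061, minus strand), stood at 310, 752 and 190 CPM in ALI control and at 157, 140 and 140 CPM in monolayers. The lowest ALI control library was above the highest monolayer, and the spread came from ALI control library 2. Its log2 fold change was 1.52 (SE 0.44, 95% interval 0.55 to 2.49, edgeR adjusted p = 0.0194). This call did not survive leaving out any 1 monolayer library (adjusted p from 0.0508 to 0.0623) or summing monolayers 2 and 3 as 1 (0.0624). Without ALI control library 2 the log2 fold change was 0.79 (SE 0.25, adjusted p = 0.0320).

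FDPS makes farnesyl diphosphate, the branch point to sterols and protein prenylation (hg19 chromosome 1, 155278539 to 155290457, plus strand). It stood at 295, 296 and 375 CPM in ALI control and 141, 170 and 175 CPM in monolayers. The difference was 0.99 in log2 units (SE 0.20, adjusted p = 0.00309). PMVK, the kinase that adds the second phosphate to mevalonate (hg19 chromosome 1, 154897208 to 154909484, minus strand), stood at 23.6, 38.1 and 39.0 CPM in ALI control and 14.7, 17.3 and 16.0 CPM in monolayers. Its log2 fold change was 1.07 (SE 0.24, adjusted p = 0.00644). For both genes each ALI control library was above each monolayer.

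The other 4 genes of these steps did not pass the test. HMGCS1, the synthase that opens the mevalonate route, stood at 600, 1190 and 515 CPM in ALI control and 497, 575 and 597 CPM in monolayers, with ALI control library 2 high and the other 5 values between 497 and 600 CPM. Its log2 fold change was 0.46 with that library and 0.01 without it. ACAT2 and MVK had log2 fold changes of 0.38 and 0.59 with adjusted p of 0.300 and 0.112. MVK passed when ALI control library 2 alone was left out (0.85, adjusted p = 0.00709). MVD, the decarboxylase of the route, had -0.04 (95% interval -0.71 to 0.64). ACAT2 overlaps TCP1 on the opposite strand by 558 bases, and whether the counts used strand is not given in the sources used here.

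Of the 3 genes of the squalene and lanosterol steps only LSS passed, as a fall (20.2% of all tested genes fell). LSS, which closes squalene epoxide into lanosterol (hg19 chromosome 21, 47608360 to 47648738, minus strand), stood at 69.0, 40.4 and 90.2 CPM in ALI control and at 137, 183 and 168 CPM in monolayers. It fell by 1.29 on the log2 scale (with SE 0.33, adjusted p = 0.0109), and no ALI control library reached the lowest monolayer. The enzymes just before it did not pass. FDFT1, squalene synthase, had a log2 fold change of -0.05 (95% interval -0.70 to 0.60). SQLE, squalene epoxidase, was at 394, 423 and 327 CPM in ALI control and 302, 293 and 306 CPM in monolayers, without overlap but with an adjusted p of 0.186.

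Among the 6 genes that turn lanosterol into cholesterol, TM7SF2 alone passed, as a rise (20.3% of all tested genes rose). TM7SF2 is a sterol reductase that acts just after CYP51A1 and shares that step with LBR (hg19 chromosome 11, 64879341 to 64883707, plus strand). It stood at 52.9, 35.8 and 66.9 CPM in ALI control and at 1.84, 1.82 and 1.60 CPM in monolayers, the widest separation among the genes that rose. The log2 fold change was 4.87 (SE 0.41, 95% interval 3.96 to 5.79, adjusted p = 1.89e-05), or 29.3-fold. CYP51A1, NSDHL, HSD17B7, EBP and DHCR7 had log2 fold changes between -0.05 and 0.57, none past the test. NSDHL was at 68.3 to 90.4 CPM in ALI control and 66.1 to 72.2 CPM in monolayers, so these groups overlapped. EBP was at 73.0 to 88.7 and 71.9 to 78.7 CPM, and DHCR7, the last reductase of the route, at 107 to 152 and 122 to 155 CPM.

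LBR is no member of the 28 and was chosen after its values were seen, because it encodes the other enzyme of the TM7SF2 step. LBR stood at 49.4, 69.7 and 37.7 CPM in ALI control and 32.1, 33.5 and 36.5 CPM in monolayers, with a log2 difference of 0.62 (SE 0.27, adjusted p = 0.095). On the RPKM scale, which allows for length, the mean of TM7SF2 was 26.3 in ALI control and 0.993 in monolayers, and that of LBR was 10.7 and 8.02. TM7SF2 was thus the higher of the pair in ALI control and the lower in monolayers, a description from group means with no test between genes.

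**Figure D2:**
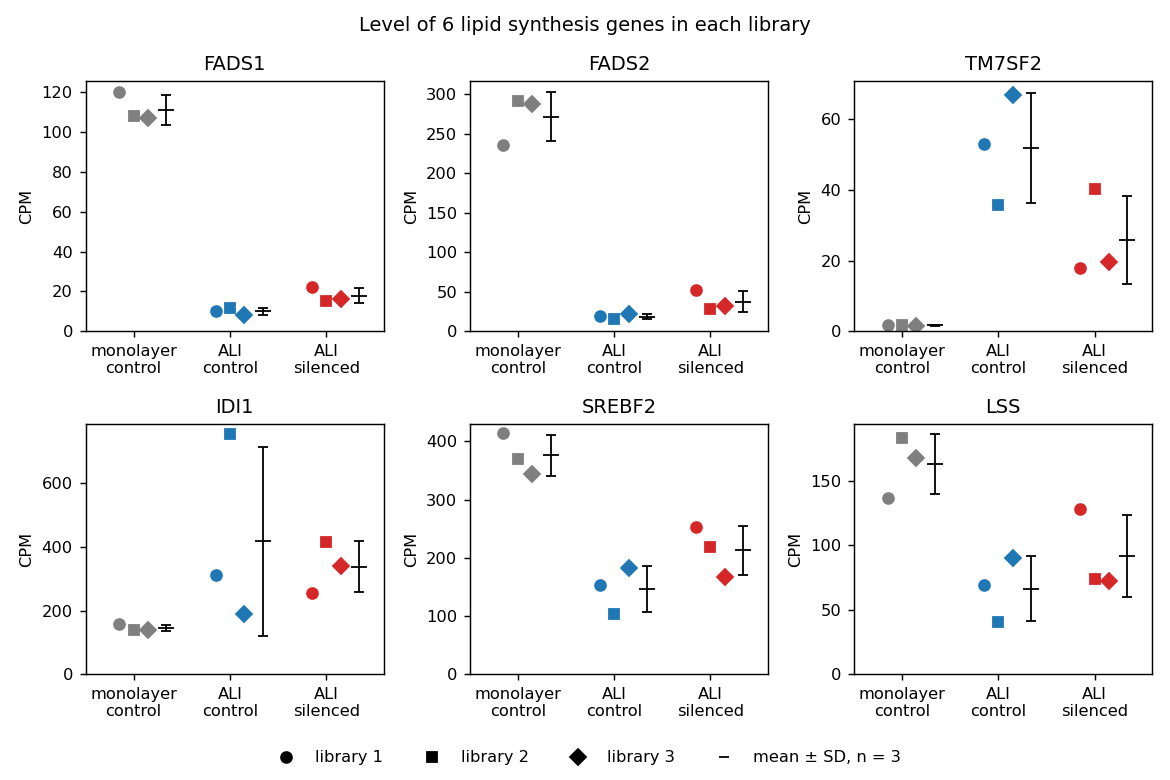
CPM (y axis, linear from 0) of 6 genes in each of the 9 libraries, by group on the x axis; symbols give the library number and the dashes with bars the mean ± SD of 3 libraries. FADS1 and FADS2 are highest in monolayers at 107 CPM or more and 235 CPM or more, TM7SF2 is near 0 there, and ALI control library 2 of IDI1 stands far above the others at 752 CPM.

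Of the 5 sterol sensing and transport genes, 1 fell and none rose, where 20.2% and 20.3% of all tested genes did. The other 4 did not pass, and the median log2 fold change of the 5 was -0.54. SREBF2 (hg19 chromosome 22, 42229106 to 42302375, plus strand) stood at 153, 104 and 182 CPM in ALI control and 414, 369 and 344 CPM in monolayers. It fell by 1.36 on the log2 scale (with SE 0.26, adjusted p = 0.00240), and the highest ALI control library lay well under the lowest monolayer. SREBF1 differed by -0.03 (95% interval -0.82 to 0.76). By RPKM, the mean of SREBF2 was 78.4 in monolayers and 27.3 in ALI control, while that of SREBF1 was 16.8 and 14.9.

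SCAP stood at 50.5, 26.6 and 58.5 CPM in ALI control and 84.0, 79.0 and 79.8 CPM in monolayers, without overlap, with a log2 difference of -0.84 (SE 0.32, adjusted p = 0.0581). It passed in 8 of 21 alternatives, among them DESeq2 (adjusted p = 0.0371) and limma-voom (0.0439), with a range of 0.0284 to 0.135. SCAP had -0.57 (adjusted p = 0.106) without ALI control library 2 alone. Without both ALI libraries numbered 2 it passed, at -0.56 (adjusted p = 0.0481). INSIG1 was at 43.0, 109 and 31.6 CPM in ALI control and 69.5, 99.4 and 97.6 CPM in monolayers. Its ALI control library 2 was the highest of these 6 values and its other ALI control libraries the lowest. STARD4, a carrier of cholesterol between membranes, was at 42.2, 70.4 and 30.7 CPM against 73.9, 65.6 and 64.3 CPM. Without ALI control library 2 alone, INSIG1 and STARD4 passed, with log2 fold changes of -1.25 (adjusted p = 0.0429) and -0.90 (adjusted p = 0.00758). STARD4 also passed in both fits to log2 RPKM.

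The 3 fatty acid synthesis genes all had log2 fold changes below 0 (48.8% of all tested genes did), and 1 passed (20.2% of all tested genes fell). ACLY (hg19 chromosome 17, 40023179 to 40075272, minus strand) stood at 257, 157 and 285 CPM in ALI control and 361, 506 and 481 CPM in monolayers, and fell by 0.95 on the log2 scale (with SE 0.29, adjusted p = 0.0260). Its call was lost when monolayer 2 or monolayer 3 was left out (adjusted p = 0.0956 and 0.0833) or the pair was summed (0.0872). FASN was at 288, 90.9 and 333 CPM in ALI control and 413, 534 and 485 CPM in monolayers. All of its monolayers were higher, yet the drop in ALI control library 2 left a log2 fold change of -1.01 with SE 0.54 (adjusted p = 0.157). Without that library it was -0.61 (adjusted p = 0.323). ACACA was at 141, 72.6 and 150 CPM and 156, 157 and 147 CPM, with an adjusted p of 0.345.

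FADS1 and FADS2 gave the largest falls of the 28 genes. These neighbours on chromosome 11 encode the desaturases that turn dietary linoleic and linolenic acid into long polyunsaturated fatty acids. In hg19, FADS1 spans 61567097 to 61584529 on the minus strand and FADS2 spans 61595713 to 61634825 on the plus strand, with their starts 11184 bases apart. FADS1 stood at 10.3, 11.6 and 7.93 CPM in ALI control and 120, 108 and 107 CPM in monolayers, and fell by 3.49 on the log2 scale (with SE 0.24, adjusted p = 5.36e-06), or 11.2-fold. FADS2 stood at 19.6, 14.9 and 21.3 CPM in ALI control and 235, 291 and 287 CPM in monolayers, and fell by 3.87 (SE 0.30, adjusted p = 1.03e-05), or 14.6-fold. Each monolayer was above every ALI library of either arm for both genes. FADS3, the third desaturase of this cluster, was chosen after its values were seen. It stood at 25.3, 22.2 and 23.4 CPM in ALI control and 94.5, 84.4 and 82.8 CPM in monolayers, and fell by 1.88 on the log2 scale (with SE 0.23, adjusted p = 0.000212).

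SCD and ELOVL6, the desaturase and elongase of saturated chains, did not pass. SCD had the highest mean RPKM of the 28 genes in every group, at 321 in ALI control, 375 in ALI silenced and 331 in monolayers. Its log2 fold change was 0.12 (95% interval -0.42 to 0.67, adjusted p = 0.708). ELOVL6 had -0.06 (95% interval -0.58 to 0.47).

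Silencing of SPINK7, compared within the ALI cultures, left no member of the 28 past the test: 0 rose, where 0.226% of all tested genes rose, and 0 fell, where 0.703% of all tested genes fell (edgeR adjusted p under 0.05). At an unadjusted p under 0.05, FADS1 and FADS2 were higher and TM7SF2 was lower, which is 7.14% and 3.57% of the 28, against 4.09% and 5.07% of all tested genes. DESeq2, which called 3.24% of all tested genes, called the same FADS pair, and limma-voom, which called 1.16%, called none of the 28. The CPM of the groups did not overlap for FADS1 and FADS2 on the higher side (5.76% of all genes) and for FDPS on the lower side (6.34% of all genes). The median log2 fold change was 0.10 (quartiles -0.13 and 0.40) over the 28 genes and 0.01 (quartiles -0.25 and 0.28) over all tested genes. The silencing and differentiation comparisons share the ALI control libraries, so a gene that those libraries place low is drawn upward in the first and downward in the second.

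FADS1 stood at 22.1, 15.2 and 16.3 CPM in the silenced libraries against 10.3, 11.6 and 7.93 CPM in ALI control. The log2 fold change was 0.85 (SE 0.23, 95% interval 0.34 to 1.35, unadjusted p = 0.00371, edgeR adjusted p = 0.145). FADS2 stood at 52.5, 27.5 and 31.7 CPM against 19.6, 14.9 and 21.3 CPM, with a log2 fold change of 1.00 (SE 0.27, 95% interval 0.40 to 1.60, adjusted p = 0.149). Every silenced library exceeded every control library for both, and both remained far below the monolayers. DESeq2 gave adjusted p of 0.0290 for FADS1 and 0.0269 for FADS2. Without both ALI libraries numbered 2 the edgeR values were 1.09 (adjusted p = 0.0133) and 1.05 (adjusted p = 0.0240). That setting called 5.48% of all tested genes, against 0.929% in the main test. Over all alternatives the adjusted p ran from 0.0133 to 0.524 for FADS1 and from 0.0240 to 0.524 for FADS2. FADS3 had 48.4, 50.4 and 29.1 CPM against 25.3, 22.2 and 23.4 CPM, with a log2 difference of 0.85 (SE 0.23, adjusted p = 0.149).

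TM7SF2 stood at 17.8, 40.3 and 19.5 CPM in the silenced libraries against 52.9, 35.8 and 66.9 CPM in ALI control, with a log2 fold change of -1.0 (SE 0.34, 95% interval -1.75 to -0.25, adjusted p = 0.291). Silenced library 2 lay above control library 2, and this pair alone made the groups overlap. Without both of these libraries the log2 fold change was -1.68 (adjusted p = 0.000326), and the gene also passed when silenced library 2 alone was left out. These settings called 5.48% and 1.82% of all tested genes, against 0.929% in the main test. Over all alternatives its adjusted p ran from 0.000326 to 0.821. All silenced libraries stayed well above the monolayers.

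By role, the silencing medians were -0.14 for mevalonate and isoprenoid genes, -0.12 for squalene and lanosterol steps and -0.06 for the steps to cholesterol. They were 0.41 for sterol sensing and transport, 0.40 for fatty acid synthesis and 0.58 for elongation and desaturation. None of the 28 passed, so these medians are descriptions. FDPS was at 288, 269 and 272 CPM in silenced libraries and 295, 296 and 375 CPM in control, a log2 fold change of -0.22. SREBF2 was at 253, 219 and 168 CPM against 153, 104 and 182 CPM, with 0.54 (95% interval -0.02 to 1.11, adjusted p = 0.556). SREBF1 was at 183, 133 and 107 CPM against 104, 41.9 and 124 CPM, with 0.65 (95% interval -0.14 to 1.44). FASN reached 734 CPM in silenced library 1 and 196 and 297 CPM in the others, and its 95% interval ran from -0.40 to 1.97. The log2 fold change of FASN was 0.78 with silenced library 1 and 0.05 without it. SCD differed by 0.11 (95% interval -0.43 to 0.65), and HMGCS1 by -0.14 (95% interval -0.84 to 0.55).

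**Figure D3:**
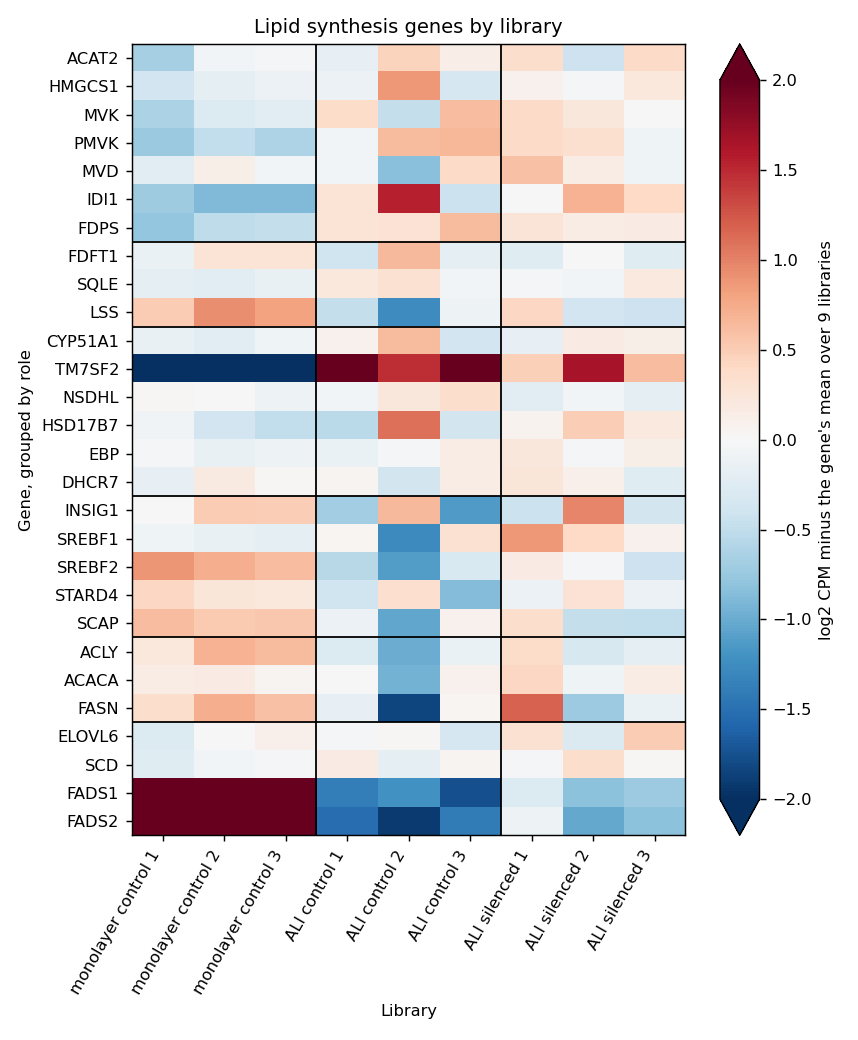
Level of the 28 genes (rows, grouped by role between black lines) in the 9 libraries (columns), as log2 CPM minus the mean of each gene over the 9 libraries; colours end at 2 in either direction. The FADS1 and FADS2 rows are high in all 3 monolayers, the TM7SF2 row is low there, and the column of ALI control library 2 is low for FASN and SREBF2 and high for IDI1, HMGCS1 and INSIG1.

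The 28 genes also differed between libraries of 1 group. ALI control library 2 was above both of its partners for 11 genes and below both for 13, and silenced library 2 for 9 and 11. Over all tested genes 41.9% were above and 45.4% below in the control arm, and 38.7% and 39.0% in the silenced arm, so the counts for these genes were near those of all genes. In both arms library 2 was the highest for CYP51A1, FDFT1, HSD17B7, IDI1, INSIG1 and STARD4, and the lowest for ACACA, ACLY, FADS2 and FASN. Over all tested genes 25.5% were the highest and 26.9% the lowest in library 2 of both arms, so 6 and 4 of 28 are no more than these shares. IDI1 in library 2 was at 3.01 times the mean of its partners in the control arm and 1.39 times in the silenced arm, and INSIG1 at 2.92 and 2.58 times. FASN was at 0.293 and 0.38 times. HMGCS1 was at 2.13 times in the control arm but 0.893 times in the silenced arm, and TM7SF2 at 0.598 and 2.16 times, so these moved in opposite directions. The 10 proliferation markers summed to 129 CPM in control library 2 against 239 and 261 CPM, and to 75.7 CPM in silenced library 2 against 550 and 562 CPM. The squamous markers summed to 4880 CPM in control library 2 against 12900 and 12300 CPM. The part of either in these differences was not tested.

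**Figure D4:**
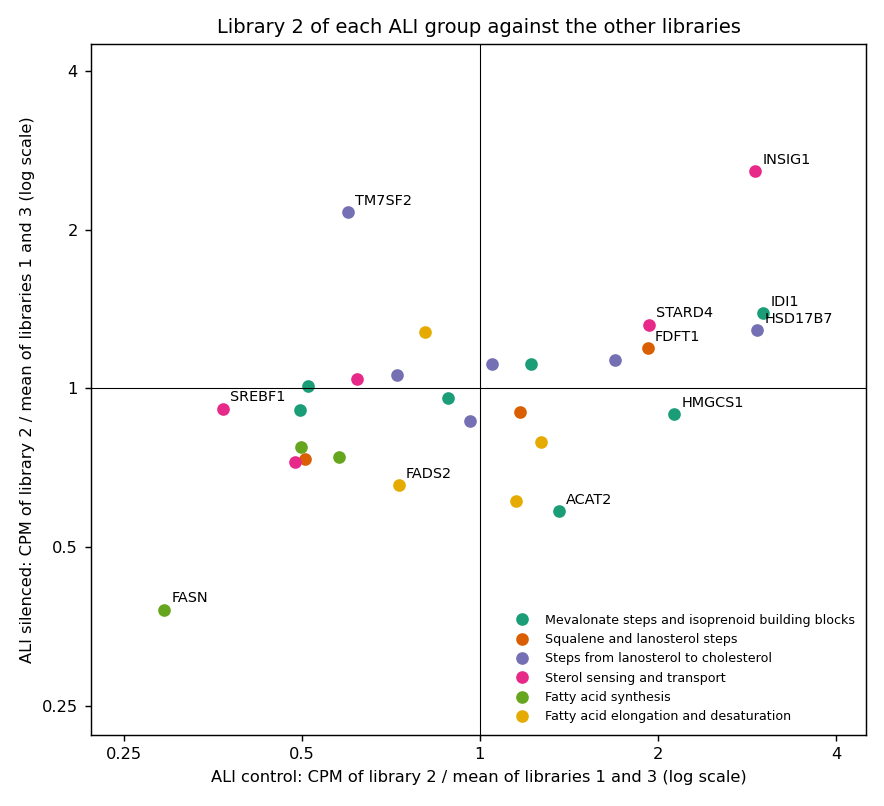
For each of the 28 genes (points, coloured by role), the CPM of library 2 divided by the mean of libraries 1 and 3, in ALI control (x axis) and ALI silenced (y axis), both on log scales with lines at 1. INSIG1 lies at 2.92 and 2.58, FASN at 0.293 and 0.38, and TM7SF2 on opposite sides of 1 in the 2 arms.

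ACACA was the 1 gene here whose deposited rows start at well separated places, and each row has its own count. Rows that start (at their 5′ end, hg19 chromosome 17) at 35716059 took 74.6, 36.1 and 53.1% of its counts in ALI control, 53.5, 71.6 and 29.5% in silenced and 66.2, 86.5 and 86.3% in monolayer libraries. Those from the outermost start at 35766902 took 6.92, 36.1 and 15.8%, 13.4, 16.0 and 37.9%, and 14.3, 8.71 and 5.81%. The shares varied as much within groups as between them, and how the authors split reads between overlapping rows is not given in the sources used here.

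Other genes of these pathways were read from lists. Of 11 further sterol synthesis and SREBP handling genes, all tested, 3 rose and 1 fell on differentiation (20.3% and 20.2% of all tested genes), with a median log2 fold change of 0.73. The rises numbered 6 without ALI control library 3, LBR among them, and 2 without any 1 monolayer library, when INSIG2 lost its call. MMAB, which shares its promoter region with MVK, rose by 0.96 (SE 0.22, adjusted p = 0.00642), and C14orf1, a scaffold of sterol enzymes, by 0.85 (SE 0.18, adjusted p = 0.00472). INSIG2, the partner of INSIG1, rose by 0.99 (SE 0.32, adjusted p = 0.0307), from 23.7 ± 1.77 CPM in monolayers to 47.2 ± 22.4 CPM in ALI control (SD, n = 3). MBTPS1, the protease that first cuts the SREBPs and chosen after its values were seen, fell by 0.82 (SE 0.17, adjusted p = 0.00377). None of the 11 passed under silencing, with a median of -0.23. Without both ALI libraries numbered 2, TMEM97 was called higher. That setting called 5.48% of all tested genes, against 0.929% in the main test.

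Of 28 further fatty acid synthesis and activation genes, 23 were tested, and 9 rose and 6 fell on differentiation (20.3% and 20.2% of all tested genes), with a median of 0.50. Over the alternatives 7 to 10 rose and 5 to 8 fell. ACSL1, which activates long-chain fatty acids, was at 250 ± 16.8 CPM in ALI control and 19.8 ± 5.68 CPM in monolayers (SD, n = 3), a log2 fold change of 3.65. ELOVL7, an elongase, was at 64.2 ± 50.4 and 3.70 ± 1.71 CPM, a rise of 4.13 in log2 units (SE 0.77, adjusted p = 0.00219). FADS6 had 0 counts in all 3 monolayers and 4.66 ± 2.76 CPM in ALI control. With the monolayers set to a floor of 3 counts in all, the mean would be 51.9-fold higher, which leaves out the spread of the ALI libraries. FADS6 could pass the filter on low counts only through ALI libraries, so its call could only be a rise. It was not among the rises when a mean of at least 5 CPM was required. Chosen after their values were seen, ELOVL4, the elongase of very long chains, rose by 3.20 (adjusted p = 0.000174), and ELOVL1 rose by 1.40 (adjusted p = 0.00138). ELOVL5, a further elongase chosen in the same way, fell by 0.72 (SE 0.22, adjusted p = 0.0259), so the elongases did not all move in 1 direction. SLC25A1, the citrate carrier that feeds ACLY and also chosen after its values were seen, fell by 1.46 (SE 0.30, adjusted p = 0.00417). The remaining calls, named to complete the list, were rises of MCAT, ME1, OXSM and TECR and falls of FADS3 (described above), ACACB, ACSL4 and MLXIP. None of the 23 passed under silencing with edgeR, with a median of -0.02, whereas DESeq2 called FADS3 higher and ELOVL1 lower. DESeq2 called 3.24% of all tested genes, against 0.929% in the main test.

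Of 18 genes of sterol efflux, storage and oxysterol response, 16 were tested, and 3 rose and 2 fell on differentiation (20.3% and 20.2% of all tested genes), with a median of -0.13. Without ALI control library 2, 4 fell, LIPA and SOAT1 being added. ABCA1, the exporter of cholesterol to lipid-poor apolipoprotein, fell by 2.17 on the log2 scale (with SE 0.33, adjusted p = 0.000727), from 232 ± 56.3 CPM in monolayers to 51.3 ± 9.74 CPM in ALI control (SD, n = 3). ABCG1, which loads lipoprotein particles, rose by 1.63 (SE 0.28, adjusted p = 0.00136). OSBPL5, a lipid transfer protein, fell by 2.43 (SE 0.42, adjusted p = 0.00141). OSBPL2 and STARD5, chosen after their values were seen, rose by 1.22 and 1.25. None of the 16 passed under silencing, with a median of 0.06. Without both ALI libraries numbered 2, where 5.48% of all tested genes were called against 0.929% in the main test, ABCG1 was called lower.

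Markers of the cell states were read in the same comparisons. Under silencing, 6 of the 10 squamous markers fell and none rose (0.703% and 0.226% of all tested genes). Their median was -2.40 and their sums were 1330 to 1840 CPM. Of the 10 proliferation markers none passed under silencing (median 1.11), and on differentiation 1 fell (TYMS, -1.73) and none rose (median 1.31), with sums of 121 to 161 CPM in monolayers. Of the 7 basal keratinocyte markers, 2 rose and 2 fell on differentiation (20.3% and 20.2% of all tested genes), with a median of -0.37. None of the 7 passed under silencing (median 0.41). Of the leukocyte markers, 1 of 7 could be tested and 2 had 0 counts throughout. They summed to 12.5 CPM in ALI control library 2, to 8.45 CPM in silenced library 2 and to 0.585 to 2.96 CPM in the other libraries. Melanocyte markers, 1 of 4 tested and 2 at 0, summed to 0.745 to 3.28 CPM. Fibroblast markers, 1 of 7 tested and 1 at 0, summed to 186 CPM in monolayer 1, to 52.9 and 50.1 CPM in the other monolayers and to 12.2 to 49.2 CPM in the ALI libraries, with no call in either comparison. Of the 4 endothelial markers, VWF could be tested and rose on differentiation (log2 fold change 5.24). It was low throughout, at 8.84, 2.65 and 9.41 CPM in ALI control and at most 0.354 CPM in monolayers. The other 3 were under 1 CPM in every library. Whether these marker levels have a part in the lipid gene values was not tested.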

How the data were processed

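PolyA-selected stranded RNA-seq was deposited for 9 libraries in 3 groups of 3, per the labels' protocols. The submitters' processing notes name hg19, STAR 2.4.2a, Bowtie and MACS2 without roles; the counter, annotation and strand setting were not given in the sources used here. The deposited read counts are whole and not normalized, and the deposited RPKM values were computed by the authors. Each table held 29800 rows; rows of 1 symbol on 1 chromosome were summed. The numbering in the file names of some ALI libraries differs from the labels, whose numbers are used. File names of ALI libraries also say day 7, whereas the labels' protocols give harvest on day 14, and the labels were followed.

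Tests on the counts used edgeR 4.0.16 (R 4.3.3; TMM, filterByExpr, robust quasi-likelihood F-test over all 9 libraries, 6 residual degrees of freedom), with Benjamini-Hochberg adjustment over 12806 genes and a threshold of 0.05. SE came from the F statistic, and 95% intervals used 10.1 to 10.2 total degrees of freedom. Across members, 56 tests are read. CPM uses TMM-scaled library sizes; errors are SD. RPKM, as deposited, served to compare genes. DESeq2 1.42.0, limma 3.58.1 and other alternatives are in the closing section. Members and lists were chosen with earlier results of these data known. Genes named were the members, SPINK7 and, per list and comparison, up to 3 called genes with the largest change; others are marked. Replicate numbers were not treated as pairing.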

Additional observations from a re-analysis of the deposited data

How the results depend on the processing

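Of the 9 members called on differentiation, 7 kept their call in all 21 alternatives, and IDI1 and ACLY did not (17 and 18 of 21). The count of members that rose ran from 3 to 5 and of those that fell from 4 to 7 when 1 library was left out. Without both ALI libraries numbered 2, 8 fell. That setting called 50.7% of all tested genes in either direction, against 40.5% in the main test. Under silencing 2 rose with DESeq2's Wald test, where 3.24% of all tested genes were called in either direction, against 0.929% in the main test. Without both ALI libraries numbered 2, 2 rose and 1 fell, where 5.48% of all tested genes were called. Leaving out 1 library gave 0 rises and 0 to 1 falls. With the replicate block the counts were 0 and 0 under silencing and 4 and 6 on differentiation. Same-numbered ALI libraries correlated at 0.49, 0.58 and -0.01, so the numbers were not taken as pairs, and ALI control 3 correlated best with silenced 1 (0.64).

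Log2 fold changes that changed sign were all of members not called in the main test. Under silencing and without both ALI libraries numbered 2, ACAT2, HMGCS1, IDI1, FDFT1, SQLE, CYP51A1, HSD17B7, DHCR7 and SCD had 0.37, 0.37, 0.25, 0.04, 0.01, 0.11, 0.58, -0.09 and -0.11. With limma on log2(RPKM + 1), ACAT2, HMGCS1, MVK, IDI1, SQLE, CYP51A1 and HSD17B7 had 0.09, 0.07, 0.15, 0.02, 0.00, 0.03 and 0.26, and with a pseudocount of 0.1 they had 0.09, 0.08, 0.16, 0.02, 0.00, 0.03 and 0.30. MVK and HSD17B7 had 0.04 and 0.20 with limma-voom, HSD17B7 0.01 with no low-count filter, and ACAT2, MVK and HSD17B7 0.00, 0.02 and 0.11 with the replicate block. On differentiation, MVD, HSD17B7, DHCR7 and SREBF1 had 0.24, -0.15, 0.09 and 0.32 without both libraries numbered 2, MVD and FDFT1 0.01 and 0.01 with monolayers 2 and 3 summed, and EBP and SCD -0.09 and -0.06 with either RPKM pseudocount. Leaving out 1 library, the silencing ranges were -0.15 to 0.18 (ACAT2), -0.36 to 0.32 (HMGCS1), -0.27 to 0.22 (MVK), -0.66 to 0.43 (IDI1), -0.45 to 0.13 (FDFT1), -0.34 to 0.17 (CYP51A1), -0.28 to 0.72 (HSD17B7), -0.06 to 0.20 (DHCR7), -0.22 to 1.13 (INSIG1), -0.20 to 0.36 (SCAP) and -0.04 to 0.19 (SCD). The differentiation ranges were -0.34 to 0.24 (MVD), -0.43 to 0.15 (FDFT1), -0.15 to 0.84 (HSD17B7), -0.15 to 0.09 (DHCR7), -0.33 to 0.32 (SREBF1) and -0.16 to 0.05 (ELOVL6). The cause was not tested. With 3 libraries a group, the 95% intervals beside the values give a range for the change of each gene. They are not adjusted for the number of genes tested, whereas the calls are. The smallest change that could be called was not tested.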
